A study of Mus musculus with 8 samples.

Results

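The lens capsule of sham-operated mice was described from the 4 sham libraries of a series of 8. They were chosen by their sham label, and the other 4 libraries, from the injury model that the submitters call ASC, are not analysed here. Each sham library came from lens capsules of wild-type (WT) C57BL/6 mice aged 6 to 8 weeks, taken 7 days after an operation in which the cornea was cut and the capsule was left closed. The submitters describe the 4 as biological replicates; the labels do not state how many capsules or mice entered each library. Values describe the capsule of an operated eye, with no unoperated eye used here, and there is no comparison between groups and no test. Poly-A RNA was sequenced from whole tissue, so fewer cells of a type and less RNA per cell cannot be told apart.

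The lens capsule is the basement membrane that surrounds the lens. The anterior lens epithelium lies on its inner face and secretes most of it, and at the lens equator these cells leave the cell cycle and become fibre cells, which fill with crystallins and lose their organelles. The capsule is a network of type IV collagen and laminin joined by nidogen and perlecan. The lens has no blood vessels, so its epithelium carries the pumps, glucose transporters and amino acid transporters that keep the tissue clear.

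Levels within a gene are given as CPM, the gene's counts for every 1000000 counts of its library. Levels of different genes are compared only per length, as TPM, in which counts are divided by the exon length of the gene and the results are scaled to the same sum in every library. The exon length is the union of the annotated exons. Where the longest or the median transcript as the length changed a leading gene or an order of genes, this is given beside it. The library totals were 21141582, 19719506, 17924087 and 14420494 counts in sham 1 to sham 4. Spread is given as the standard deviation (SD) over the 4 libraries, or as the coefficient of variation (CV), which is the SD as a percentage of the mean. A mean of at least 1 CPM was reached by 14311 genes, of which 12723 were protein-coding and 1035 long non-coding, and 8956 genes reached 10 CPM. In each library, between 14086 and 14672 genes reached 1 CPM. Outside crystallin, mitochondrial, ribosomal protein and basement membrane genes, 12584 of 21846 protein-coding genes reached 1 CPM and 8607 reached 10 CPM. The counts given below for gene lists are to be read beside these.

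The markers set for the tissue were abundant in all 4 libraries. Cryaa, the alpha-A crystallin, stood at 161454, 135373, 133835 and 162810 CPM in sham 1 to sham 4. Col4a1, a type IV collagen chain, stood at 7615, 8823, 8389 and 5734 CPM. Pax6, the transcription factor on which eye development depends, had 460, 524, 510 and 407 CPM, and Foxe3, a forkhead factor of the anterior lens epithelium, had 327, 358, 398 and 297 CPM. These 4 genes varied between libraries by 17.9% or less, as a CV.

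The libraries differed from each other in some genes. Sham 3 was the highest for 188 of the 240 genes that had a mean of at least 10 CPM and a CV above 50%, and for 3874 of all 8956 genes at 10 CPM or more. Sham 1 was the lowest for 135 of the same 240 genes and for 2125 of the 8956. Among the former was the apolipoprotein gene Apoe, at 214, 1298, 1317 and 907 CPM. Sham 4 had the fewest counts and the most ribosomal RNA, and it was the lowest for 5321 of the 8956 genes at 10 CPM or more. Its share of counts in crystallin genes was the largest, at 37.7%, and that of sham 3 the smallest, at 28.4%. A larger crystallin share lowers the CPM of other genes by construction, and its part in these counts of genes was not tested. Genes of the Y chromosome had counts in sham 1 and sham 4 and 0 counts in sham 2 and sham 3. The sex of the mice is not given in the labels. Without sham 3 the number of genes above a CV of 50% was 104.

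A few genes took much of each library. The 16 crystallin genes together held 35.9%, 29.3%, 28.4% and 37.7% of the counts in sham 1 to sham 4, a mean of 32.8% ± 4.63 (SD, n = 4). Sham 1 and sham 4 lay above sham 2 and sham 3, the same division as that of the Y-linked genes, and these cannot be told apart in 4 libraries. Genes of the capsule's basement membrane held 2.59% ± 0.416, ribosomal protein genes 2.42% ± 0.212, and genes of the mitochondrial genome 1.87% ± 0.293. Long non-coding RNAs held 1.40% ± 0.189, and pseudogenes 0.507% ± 0.0269. Nuclear ribosomal RNA, all of it in practice from the annotated gene CT010467.1, varied widely, with 0.473%, 0.145%, 0.0870% and 1.52%. Cryaa alone took 14.8% ± 1.59 of the counts, the 10 most abundant genes of each library 33.3% ± 4.61, and the 100 most abundant 48.0% ± 4.72.

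**Figure D1:**
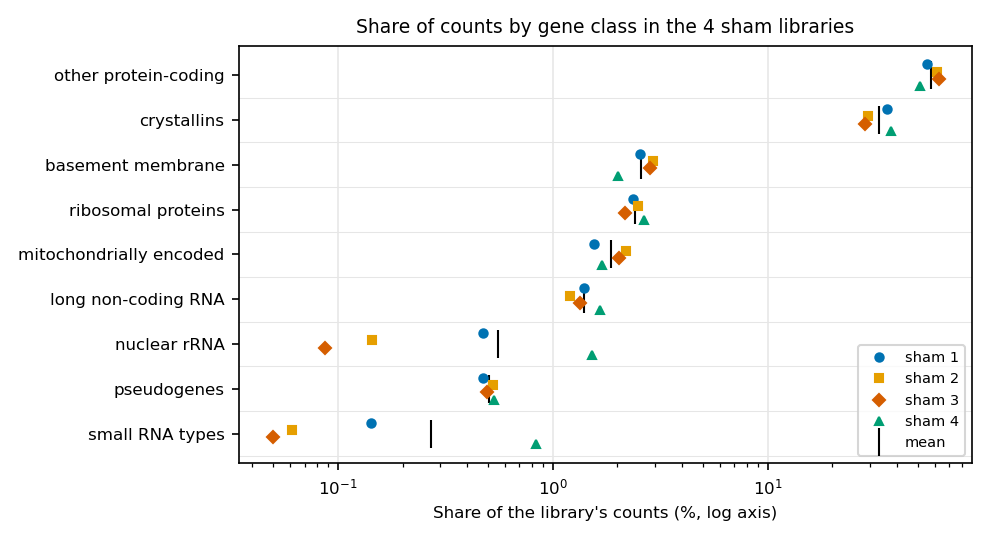
Share of each library's counts, in percent on a log axis, by gene class; symbols are the 4 sham libraries and the vertical bar is their mean. Crystallins lay between 28.4% and 37.7%, basement membrane genes between 2.01% and 2.93%, and sham 4 was far to the right for nuclear rRNA (1.52%) and small RNA types (0.834%).

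Crystallins are the structural proteins that give the lens its refractive power, and alpha crystallins are also small heat shock proteins. Because these genes led the whole profile, the 150 bases before the RefSeq start site of 5 of them that hold TGCTGA on either strand are shown, from build GRCm38.p6. Crybb2 had no match, and those of Cryba2 and Crygs began 149 and 200 bases before the start. Capitals mark TGCTGA or its reverse complement TCAGCA, a half-site of the element bound by MAF factors, as well as TATAAA, the TATA box, and CCAAT, the CCAAT box.
Cryaa, chr17:31677781-31677930, plus strand: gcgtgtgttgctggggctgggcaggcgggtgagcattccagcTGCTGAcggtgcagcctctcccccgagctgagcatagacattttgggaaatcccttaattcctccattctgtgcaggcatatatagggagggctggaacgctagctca
Cryba1, chr11:77725294-77725443, minus strand: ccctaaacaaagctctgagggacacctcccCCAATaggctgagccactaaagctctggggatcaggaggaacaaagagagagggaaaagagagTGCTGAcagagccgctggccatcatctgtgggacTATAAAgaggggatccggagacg
Cryba4, chr5:112252519-112252668, minus strand: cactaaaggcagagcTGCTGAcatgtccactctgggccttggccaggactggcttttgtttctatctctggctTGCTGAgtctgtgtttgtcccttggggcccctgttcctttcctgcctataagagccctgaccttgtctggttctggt
Crybb1, chr5:112255670-112255819, plus strand: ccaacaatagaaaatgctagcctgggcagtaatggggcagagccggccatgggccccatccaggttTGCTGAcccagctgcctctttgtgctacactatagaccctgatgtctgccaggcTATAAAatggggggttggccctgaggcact
Crybb3, chr5:113081585-113081734, minus strand: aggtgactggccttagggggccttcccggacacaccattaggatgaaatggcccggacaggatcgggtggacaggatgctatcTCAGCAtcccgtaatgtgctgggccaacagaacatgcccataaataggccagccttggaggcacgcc
The match nearest the start began 108 bases before it in Cryaa, 57 in Cryba1, 77 in Cryba4, 84 in Crybb1 and 67 in Crybb3.

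RefSeq's table held promoters of 15 of the 16 crystallin genes. The missing promoter was that of Cryab, so Cryaa was the only alpha crystallin searched. TGCTGA, searched on both strands in the 250 bases before the start, was found in 10 of the 15 and in 16.1% of all 32851 promoters of that length. By family it was found in 6 of 7 alpha and beta promoters, 2 of 6 promoters of gamma A to F, and 2 of 2 promoters of gamma N and S. TATAAA, searched on both strands in the last 50 bases, was found in 3 of the 15 and in 3.50% of all promoters. The related letters TATATA lay in the last 50 bases of Cryaa, Cryga to Crygf and Crygn, and are not in capitals above. A promoter without TATAAA may therefore still hold a similar stretch. The share of all promoters with TATATA is not given here. The gamma A to F genes are related copies, so their promoters are not independent. A match of letters is a description and does not show that a factor was bound.

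Per length, Cryaa stood at 193123, 170330, 172567 and 186505 TPM, above every other gene in each library among those given a TPM. Cryab followed at 63086 ± 4805 TPM, Crybb2 at 58853 ± 9039, Crygs at 57534 ± 9742 and Cryba1 at 50563 ± 6272 (SD, n = 4). The range of each of these 4 overlapped that of the next, so their order is not fixed by these libraries, while the range of Cryaa lay clear of them. Cryaa was 2.88 ± 0.282 times Cryab per length, between 2.58 and 3.26 in each library.

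The beta crystallins Cryba2, Cryba4, Crybb1 and Crybb3 came next, at means from 9870 to 30201 TPM. Crygb, Crygc and Crygd, gamma crystallins of the fibre cell core, had the widest spread among crystallins above 100 CPM. Crygd stood at 1592, 776, 2542 and 3819 CPM, and Crygb at 1633, 840, 2679 and 3794 CPM. Sham 4 was the highest and sham 2 the lowest for Crygb, Crygc and Crygd, with CVs of 55.6% to 59.9% beside 10.7% for Cryaa and 7.64% for Cryab. Gamma A to F together made up 1.52%, 0.911%, 2.76% and 3.20% of crystallin counts. Where these related copies are alike, reads may be split or dropped by the counting, so the values of single members are uncertain.

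Fibre genes other than crystallins were present at high levels in a preparation named for the capsule. All 17 on the list reached 1 CPM and 14 reached 10 CPM. Mip, the fibre water channel aquaporin 0, stood at 3082, 2324, 2459 and 3332 CPM, or 3292 ± 409 TPM. Grifin, a galectin-related lens protein, had 3174 ± 610 TPM, and the beaded filament genes Bfsp2 and Bfsp1 had 1597 ± 290 and 1097 ± 263 TPM. Lim2, a fibre membrane protein, stood at 995, 640, 842 and 1153 CPM. Sham 1 and sham 4 were above sham 2 and sham 3 for Mip, Grifin, Bfsp2 and Lim2, as for the crystallin share, but Bfsp1 at 1069, 661, 1143 and 1284 CPM was low in sham 2 alone. The part of the amount of fibre tissue in these differences was not tested. Lgsn, a lens relative of glutamine synthetase, had 255, 275, 541 and 608 CPM, and so divided the libraries differently again.

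Gap junctions couple lens cells, and each is built of connexins. Gja3 (connexin 46) had 790, 719, 683 and 652 CPM, and Gja1 (connexin 43), the connexin of the epithelium, had 276, 432, 369 and 306 CPM. Gja3 lay above Gja1 per length in every library. The division of libraries for Gja1 was the opposite of that for Mip, with sham 2 and sham 3 higher. Of the 30 connexins, pannexins and aquaporins listed, 7 reached 10 CPM, among them Mip, Gja3, Gja1, Aqp1, Aqp5 and Aqp4. Aqp1, the water channel of the epithelium, had 342 ± 116 TPM, and Aqp5 had 84.1 ± 5.73 TPM with a CV of 8.64% in CPM.

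**Figure D2:**
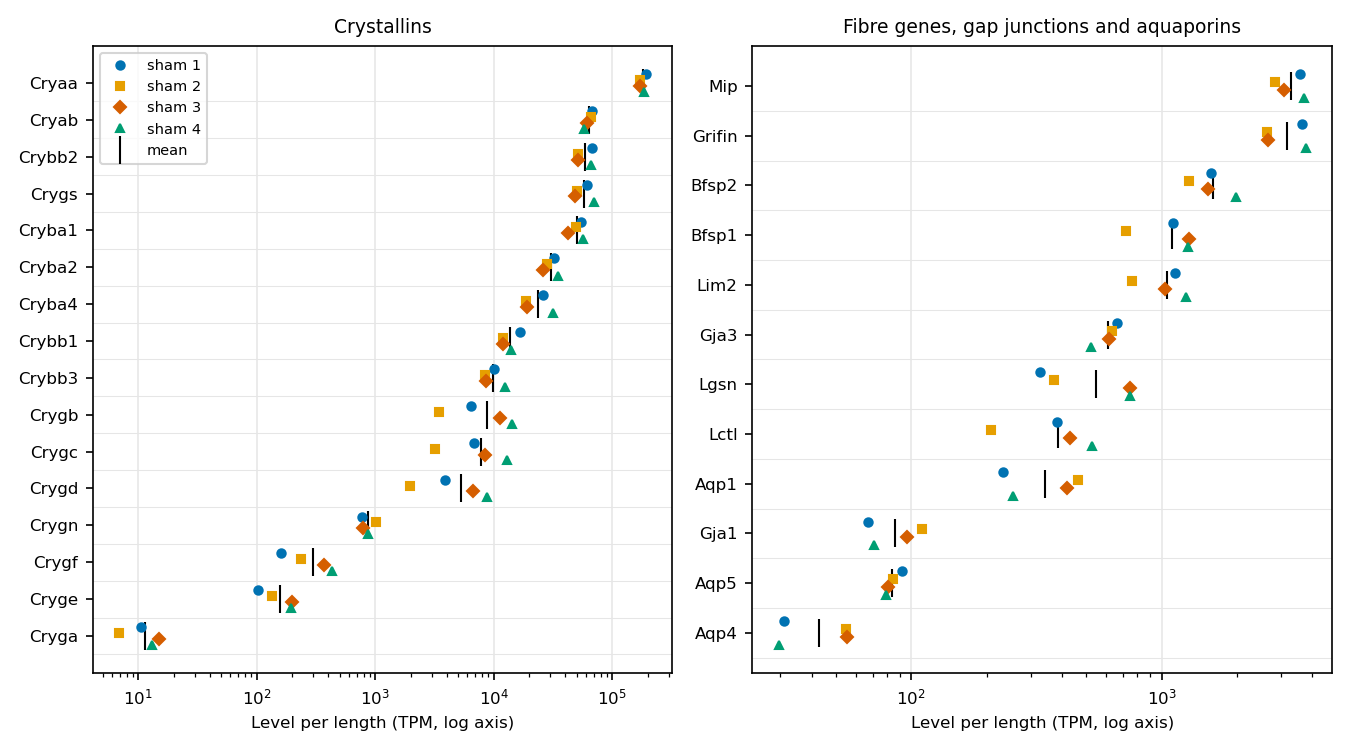
Levels per length (TPM, log axis) of the 16 crystallins and of fibre, gap junction and aquaporin genes; symbols are the 4 sham libraries and the vertical bar is their mean. Cryaa lay alone near 180631 TPM, Crygb, Crygc and Crygd were widely spread with sham 2 lowest, and Aqp1 and Gja1 were higher in sham 2 and sham 3.

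Outside crystallins and mitochondrial genes, the 25 most abundant genes together took 7.98% ± 0.744 of the counts. By counts, Col4a1 led with a mean of 7640 CPM. Per length the order was different, since long genes collect more reads. Igfbp7, a secreted binding protein of insulin-like growth factors that is found in basement membranes, led at 7817, 10276, 9334 and 8783 TPM, and its range lay above those of the genes that follow. With the median transcript as the gene length, Clu led the secreted regulators and Igfbp7 was not above Eef1a1 in every library. The translation factor Eef1a1 followed at 4815 ± 391 TPM and clusterin, Clu, an extracellular chaperone, at 3793 ± 559 TPM. Next came Mip, the ribosomal protein gene Rplp1 (3244 ± 292 TPM), Grifin, Dapl1 (2682 ± 243 TPM), Sparc (2658 ± 499 TPM), Col4a1 (2614 ± 579 TPM) and Mgarp (2595 ± 236 TPM), and the range of each of these overlapped that of the next. Sparc is a collagen-binding matrix protein without which mice develop cataract. Cd24a, a surface glycoprotein, had 2572 ± 206 TPM, Dkk3, a secreted relative of Wnt antagonists, 2071 ± 426 TPM, and vimentin, Vim, the intermediate filament of lens epithelium, 1722 ± 140 TPM.

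Some of the most abundant entries tracked ribosomal RNA. CT010467.1 stood at 4725, 1443, 866 and 15178 CPM, and the short entry Gm23935, annotated as a microRNA gene, at 1276, 495, 355 and 7909 CPM. The nuclear long non-coding RNA Malat1 had 5974, 3391, 3215 and 8670 CPM, and Lars2, a mitochondrial leucyl-tRNA synthetase gene, had 485, 202, 118 and 1989 CPM. For these 4 the order of the libraries was the same, sham 4 highest and sham 3 lowest. The part of ribosomal RNA carried through poly-A selection in the other 3 was not tested.

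All 6 type IV collagen chains were present. Per length, Col4a1 had 2614 ± 579 TPM and Col4a2 1671 ± 355 TPM, which form the common collagen IV network of basement membranes. Col4a5 had 361 ± 88.4 TPM, Col4a3 299 ± 58.6 TPM, Col4a4 218 ± 39.1 TPM and Col4a6 138 ± 28.1 TPM, chains that form the tissue-restricted networks. The range of Col4a3 overlapped those of Col4a5 and Col4a4, and that of Col4a6 lay below them. In CPM, sham 2 was the highest and sham 4 the lowest for each of the 6 chains. Their sum was 15166, 17774, 16910 and 11861 CPM. With crystallins left out of the library totals, Col4a1 was at 11876, 12482, 11722 and 9197 CPM, so that sham 1 to sham 3 lay close together and sham 4 stayed the lowest.

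Chains that are paired in the genome kept a steady ratio in 2 of 3 cases. In GENCODE's GRCm38 annotation the pairs lie head to head on opposite strands, with 21 bases between the outer 5′ ends of Col4a1 and Col4a2 on chromosome 8 (the ends overlap), 72 bases for Col4a3 and Col4a4 on chromosome 1, and 1309 bases for Col4a5 and Col4a6 on chromosome X. Col4a1 was 1.57, 1.60, 1.54 and 1.54 times Col4a2 per length in sham 1 to sham 4. The CV of that ratio was 1.96%, while Col4a1 and Col4a2 themselves varied by 17.9% and 16.8%, and counting error of the ratio was at most 0.575%. A ratio within a library does not depend on the library total, so part of this gap arises by construction. With crystallins left out of the totals, Col4a1 and Col4a2 varied by 12.8% and 11.6%. No ratios of unrelated genes were set beside that of Col4a1 to Col4a2. Col4a3 was 1.37 ± 0.0275 times Col4a4, with a CV of 2.02%. Col4a5 was 2.32, 2.99, 2.42 and 2.75 times Col4a6, with a CV of 11.6%, and counting error was at most 1.72%. A steady ratio was not limited to head-to-head pairs, since the ratio of Col4a2 to Col4a6, genes of different chromosomes, had a CV of 1.23%. The CVs over the 15 possible pairs of chains ran from 1.23% to 12%, and the 5 pairs that include Col4a5 were the widest, at 7.92% or more. That table of 15 pairs was drawn up after the first ratios were seen.

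Laminin chains, which assemble as trimers of an alpha, a beta and a gamma chain, stood lower per length. Of 11 chains, 9 reached 1 CPM and 7 reached 10 CPM. Lama5 had 62.2 ± 7.08 TPM, Lamc1 55.5 ± 12.4, Lamb1 49.8 ± 9.10 and Lamb2 48.0 ± 9.43 TPM, with overlapping ranges, and Lamb1 led with the longest transcript as the length. Lama3, Lama2 and Lama1 followed at 32.7 ± 2.23, 25.8 ± 5.07 and 24.3 ± 3.0 TPM. Lamb1 was 0.905 ± 0.0525 times Lamc1 per length. Lama4 and Lamc3 lay under 1 CPM in every library.

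Among the 20 linkers and proteoglycans, 17 reached 1 CPM and 13 reached 10 CPM. Nid1, nidogen, which joins laminin to collagen IV, had 728 ± 168 TPM, and Hspg2, perlecan, 250 ± 63.4 TPM. Npnt, an integrin ligand, had 204 ± 50.3 TPM, and Pxdn, the peroxidase that crosslinks collagen IV, 166 ± 33.1 TPM. Fbln1, a fibulin, did not follow the others, at 61.9, 340, 370 and 232 CPM. Col18a1, the endostatin precursor, named after its values were seen, had 42.9, 232, 258 and 182 CPM. Both were lowest in sham 1, like Apoe, while the collagen IV chains were lowest in sham 4. Of 24 matched genes for collagen folding, modification and export, 21 reached 10 CPM. The collagen chaperone Serpinh1 had 217 ± 39.3 TPM, the prolyl hydroxylase subunit P4ha1 182 ± 20.4 and P4hb 112 ± 22.8 TPM. P4ha2, another such subunit, led with the median transcript as the length.

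The lens transcription factors and RNA-binding regulators were broadly present, and 28 of 33 reached 10 CPM. Apart from Sparc, which the list also holds, Foxe3 led with 935, 1079, 1229 and 814 TPM, and its range lay above those that follow, although not with the median transcript as the length. Tdrd7, a granule protein whose loss causes cataract, had 389 ± 52.0 TPM and Pitx3, a homeobox factor of lens and midbrain, 222 ± 25.3 TPM. Celf1, an RNA-binding protein, had 171 ± 20.4, Mab21l1 157 ± 32.8, the crystallin activator Maf 147 ± 27.8 and Prox1, a factor of fibre differentiation, 140 ± 23.3 TPM. Pax6 had 104 ± 16.6 TPM. The ranges from Celf1 to Prox1 overlapped. In CPM, Foxe3 had a CV of 12.6% and Pax6 of 11.2%, beside a median of 13.8% over the 8956 genes at 10 CPM or more. With crystallins left out of the totals these CVs were 6.47% and 5.33%, beside a median of 10.9% over the same 8956 genes.

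**Figure D3:**
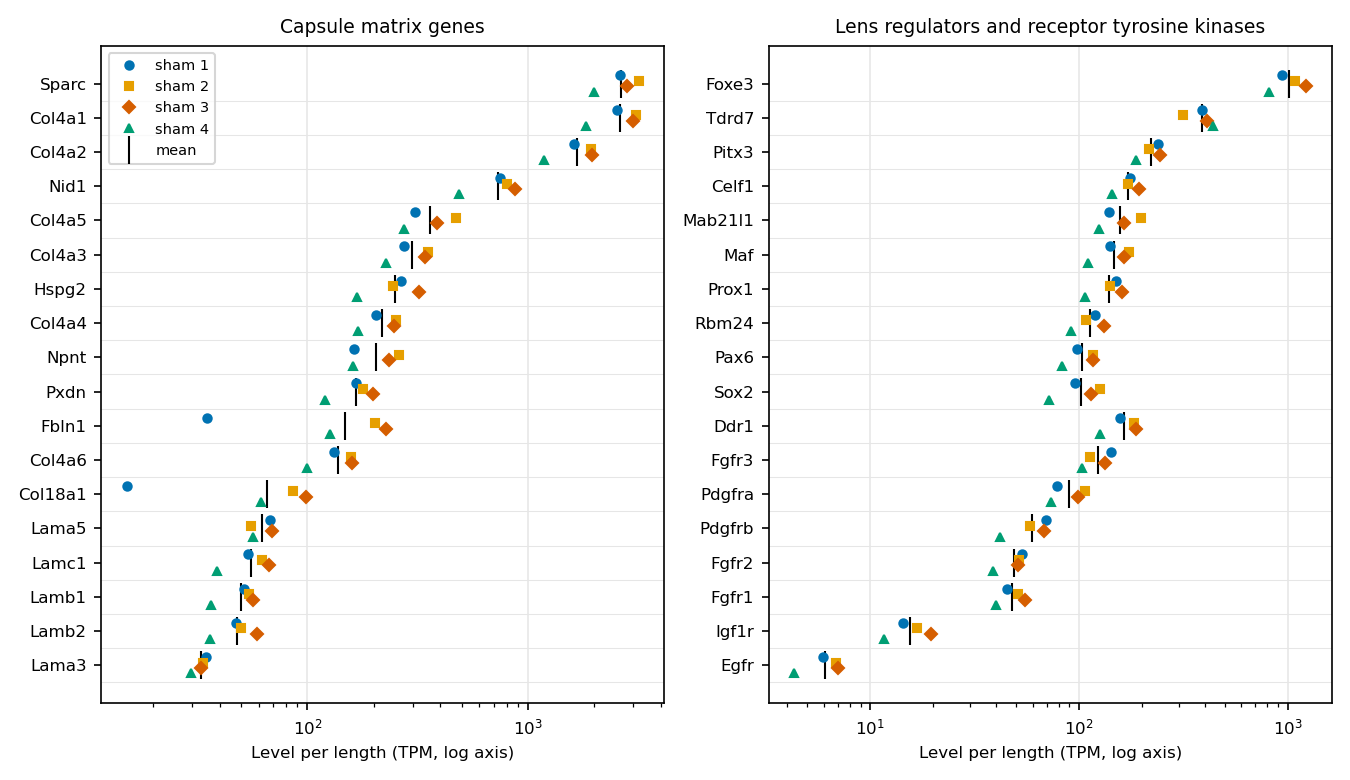
Levels per length (TPM, log axis) of capsule matrix genes, left, and of lens regulators and receptor tyrosine kinases, right; symbols are the 4 sham libraries and the vertical bar is their mean. Sham 4 was lowest for the collagen IV chains, sham 1 stood far below the rest for Fbln1 and Col18a1, and Foxe3 was above the other regulators shown.

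Adhesion genes of the epithelium were led by Vim. Ctnnb1, beta-catenin, had 269 ± 39.6 TPM, the E-cadherin gene Cdh1 106 ± 26.2 and the N-cadherin gene Cdh2 83.9 ± 18.8 TPM. Both cadherins were present, and their ranges overlapped. Of the 28 genes listed, 19 reached 10 CPM, and Vim had a CV of 6.78%, or 10.3% with crystallins left out of the totals.

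Growth factor receptors set how lens epithelium divides and differentiates, with fibroblast growth factors acting as the fibre-inducing signal. Of 58 receptor tyrosine kinases, 46 reached 1 CPM and 27 reached 10 CPM. Ddr1, a receptor for collagen, was at 302, 336, 337 and 253 CPM, or 164 ± 28.7 TPM. Fgfr3 was at 412, 310, 355 and 312 CPM, or 123 ± 18 TPM, highest in sham 1 where Ddr1 was not. The ranges of Ddr1 and Fgfr3 overlapped, and with the longest or the median transcript as the length Fgfr3 led. Fgfr2 had 48.7 ± 6.67 and Fgfr1 47.9 ± 6.52 TPM, which could not be put in order, and both lay below Fgfr3. Pdgfra, a receptor for platelet-derived growth factor, had 89.6 ± 15.8 TPM and Pdgfrb 59.3 ± 12.6 TPM. The insulin-like growth factor receptor Igf1r had 15.6 ± 3.37 TPM and the epidermal growth factor receptor Egfr 6.05 ± 1.24 TPM.

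Receptors for TGF-beta and bone morphogenetic proteins work as type I and type II pairs that phosphorylate Smads. Of 14, 11 reached 1 CPM and 8 reached 10 CPM. The type I receptors Bmpr1a, Acvr1b and Tgfbr1 had 47.6 ± 12, 35.6 ± 7.70 and 18.4 ± 5.27 TPM. Bmpr2, the type II receptor for bone morphogenetic proteins, had 11.4 ± 3.31 TPM. Tgfbr2, the type II receptor for TGF-beta, named after its values were seen, was at 1.04, 2.33, 3.40 and 2.22 CPM, or 0.704 ± 0.328 TPM, far under Tgfbr1 in each library. Of the 10 Smads and Smurfs, 9 reached 10 CPM. Smad4, the shared partner, had 42.3 ± 10.1 TPM, the inhibitory Smad6 31.8 ± 5.79 and Smad3, which led with the median transcript as the length, 28.7 ± 5.12 TPM. Smurf1, the ubiquitin ligase in the title of the study, was at 24.0, 23.9, 31.3 and 19.3 CPM, or 9.93 ± 2.47 TPM, and Smurf2 had 22.2 ± 4.42 TPM. Smurf1 was highest in sham 3 and lowest in sham 4, and its range lay below that of Smurf2.

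Integrins and other matrix receptors hold the epithelium to the capsule. Of 35, 25 reached 1 CPM and 16 reached 10 CPM. Rpsa, which is also a ribosomal protein, led at 595 ± 32.9 TPM. The integrin subunits Itgb5 and Itgb1 had 315 ± 60.5 and 234 ± 39.4 TPM, with overlapping ranges, and the syndecans Sdc2 and Sdc4 had 213 ± 45.5 and 175 ± 43.6 TPM. Itga6, the laminin-binding alpha subunit, had 123 ± 19.96 TPM and stood at 0.532 ± 0.0927 times Itgb1, an order that the longest or the median transcript as the length did not keep. The ratio was 0.661 in sham 1 and between 0.458 and 0.538 in the others.

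Other receptor families were also present. Among 24 Notch, Wnt and Hedgehog receptors, 15 reached 10 CPM, led by Lgr4 (64.9 ± 13.1 TPM), Fzd1 (61.7 ± 14.6 TPM) and Smo (52.9 ± 9.04 TPM), whose ranges overlapped. Smo led with the longest transcript as the length and Notch1 with the median. Among 52 G protein-coupled receptors, 17 reached 10 CPM. The orphan receptor Gprc5b led at 568, 618, 582 and 545 CPM, or 317 ± 31.0 TPM, and its range lay above that of the sphingosine 1-phosphate receptor S1pr3 (125 ± 28.1 TPM) and the thrombin receptor F2r (107 ± 22.0 TPM). Of 49 nuclear receptors 23 reached 10 CPM, with the thyroid hormone receptor Thra first at 64.3 ± 11 TPM. Of 27 cytokine receptors 11 reached 10 CPM, with Il6st, the shared subunit of interleukin-6 family receptors, first at 43.8 ± 12.3 TPM.

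Pumps and transporters were a large group. Of 46 ion pumps, exchangers and channels, 37 reached 1 CPM and 30 reached 10 CPM. The sodium pump subunit Atp1b3 stood at 1205, 1734, 1434 and 1119 CPM, or 1467 ± 353 TPM, far above Atp1b1 at 165 ± 42.5 TPM. Trpm3, a cation channel whose gene hosts a microRNA of the lens, had 844, 927, 900 and 750 CPM with a CV of 9.14%, and the carbonic anhydrases Car2 and Car14 had 162 ± 22.7 and 122 ± 18.2 TPM.

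Of 385 Slc genes, 251 reached 1 CPM, 160 reached 10 CPM and 20 reached 100 CPM. Beside these, of the 21846 genes in the class of other protein-coding genes, 12584 reached 1 CPM and 8607 reached 10 CPM. The glucose transporter Slc2a1 led at 806, 905, 897 and 659 CPM, or 594 ± 111 TPM. The mitochondrial ADP/ATP carrier Slc25a4 came next at 404 ± 14.7 TPM with a CV of 4.07% in CPM, and with the longest transcript as the length it was not below Slc2a1 in every library. Amino acid transport was carried by Slc3a2, the heavy chain of several exchangers (264 ± 52.7 TPM), Slc7a8 (245 ± 61.5 TPM), Slc7a2, a cationic amino acid transporter (242 ± 53.1 TPM), and Slc38a2, a glutamine and alanine carrier (209 ± 55.4 TPM), and the ranges of these 4 overlapped. The taurine transporter Slc6a6, which led the list of nutrient transporters with the median transcript as the length, was at 300, 798, 1018 and 579 CPM, lowest in sham 1. The peptide transporter Slc15a2 had 83.3 ± 13 TPM.

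Secreted regulators were abundant. Of 105 ligands, binding proteins and antagonists, 75 reached 1 CPM and 50 reached 10 CPM, led by Igfbp7, Clu and Dkk3. Apoe had 1123 ± 650 TPM, with a mean that rests on sham 2, sham 3 and sham 4. Sfrp1, a secreted Wnt antagonist, was steadier at 1099, 1032, 1015 and 968 CPM, or 597 ± 47.3 TPM. Wnt7b had 327 ± 35.4 TPM and Ccn2, a matricellular protein, 169 ± 41.6 TPM.

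Glycolysis supplies most of the energy of the avascular lens. Of the 22 matched genes of glycolysis and the polyol pathway, 21 reached 10 CPM. Aldoc, an aldolase, had 1042 ± 161 TPM, Pkm 758 ± 93.4, Eno1 684 ± 132 and Aldoa 638 ± 96.8 TPM, and with the longest or the median transcript as the length Eno1 led. Gapdh went against its neighbours in the pathway, at 18.1, 109, 44.3 and 20.2 CPM. It has many near-identical pseudogene copies in the mouse genome, so reads may have been assigned elsewhere or dropped, and its level here is uncertain. Antioxidant genes were nearly all present, with 32 of 33 at 10 CPM or more. The glutathione transferase Gstm1 had 1347 ± 193 TPM and the glutathione peroxidase Gpx4 454 ± 52.7 TPM, while the secreted peroxidase Gpx3 was at 178, 514, 450 and 428 CPM. Of 23 immediate early and stress genes, 11 reached 10 CPM, led by the growth inhibitor Btg2 at 73.7 ± 18.9 TPM, with Klf6 first instead by the median transcript. Of 29 cell cycle genes, 14 reached 10 CPM. The inhibitor Cdkn1c, which is raised as lens cells leave the cycle, led at 192 ± 11.8 TPM, followed by the cyclin Ccnd1 at 90.6 ± 21.1 TPM.

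Markers of other cell types of the eye were measured in the same libraries. All 8 photoreceptor markers reached 10 CPM, and their sum was 1054, 1230, 5012 and 1992 CPM, highest in sham 3 and 1425 CPM on average without it. All 6 markers of retinal neurons and glia reached 1 CPM, with a sum of 108, 94.6, 234 and 43.5 CPM. Of 7 pigment cell markers 6 reached 1 CPM, with a sum of 150, 172, 294 and 83.1 CPM, and the melanin enzyme Dct was at 53.0, 37.1, 124 and 8.74 CPM. These 3 sums were all highest in sham 3. Leukocyte markers summed to 10.1, 48.9, 49.7 and 28.2 CPM, lowest in sham 1, and 6 of 9 reached 1 CPM, but the pan-leukocyte gene Ptprc had a mean of 0.660 CPM.

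In 2 further lists a single gene made up most of the sum. Corneal epithelium markers summed to between 370 and 657 CPM, of which Aldh3a1, an enzyme that serves as a corneal crystallin, gave 365 to 649 CPM. The keratins Krt5, Krt12 and Krt14 had means of 0.872, 0.458 and 0.185 CPM. Keratocyte markers summed to between 530 and 776 CPM, of which the prostaglandin synthase Ptgds gave 500 to 719 CPM, while Lum and Col3a1 had means of 0.205 and 0.592 CPM. Kera had 0 counts in each library, which allows up to 0.142, 0.152, 0.167 and 0.208 CPM, as counting error only.

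Vascular endothelium markers summed to between 4.92 and 19.5 CPM, with Pecam1 and Cdh5 at means of 0.667 and 0.230 CPM. Red cell markers summed to between 46.1 and 68.2 CPM. Smooth muscle and pericyte markers summed to between 98.1 and 157 CPM, nearly all from Pdgfrb, while Myh11 had a mean of 1.58 CPM. Skeletal muscle and Schwann cell markers summed to at most 6.19 and 10.4 CPM. The part of cells from outside the capsule in the levels of other genes was not tested.

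**Figure D4:**
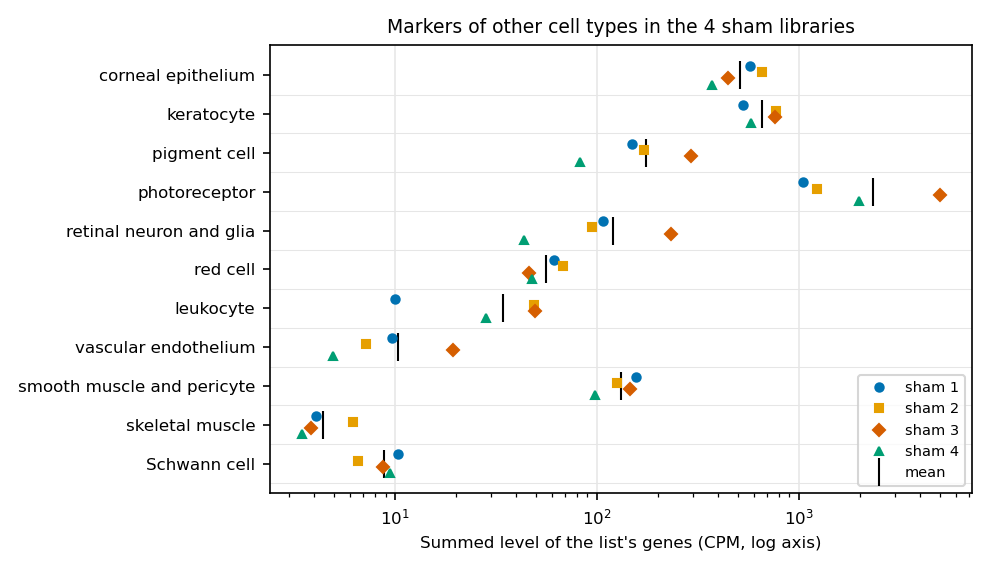
Summed CPM, on a log axis, of marker lists of cell types other than lens; symbols are the 4 sham libraries and the vertical bar is their mean. Photoreceptor markers lay between 1054 and 5012 CPM with sham 3 highest, and leukocyte markers were lowest in sham 1 at 10.1 CPM.

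Between libraries most genes varied little. Over the 8956 genes at a mean of 10 CPM or more the median CV was 13.8%, with a 10th percentile of 6.98% and a 90th of 24.1%, and the median of the part due to counting was 4.03%. A CV under 10% was found for 2297 genes and one above 50% for 240, which is 2.68%. The biological coefficient of variation that edgeR estimated in common over 14328 genes was 20.1%. By pairs, the median absolute log2 ratio of a gene ran from 0.15 between sham 2 and sham 3 to 0.32 between sham 3 and sham 4, and no 2 libraries agreed within counting error. These pairwise measures use library totals, so they include any shift shared by most genes. The TMM scaling factors were 0.971, 1.05, 1.09 and 0.894 in sham 1 to sham 4, and the pairs were not compared with those factors applied.

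The steadiest protein-coding genes at a mean of at least 100 CPM were Pebp1, an inhibitor of Raf kinase, at 364, 374, 366 and 370 CPM (CV 1.23%), and Hmx1, a homeobox gene of eye and ear, at 109, 109, 108 and 111 CPM (CV 1.25%). Counting alone gives 1.22% and 2.24% for these genes. Ubxn1 and Bag1 had CVs of 1.48% and 1.96%. Among more abundant genes, Eef1a1 varied by 3.82%, Sptan1, a spectrin, by 3.34% and Pea15a by 3.09%. This ranking was made with library totals only, and other totals can change which genes look steady. With crystallins left out of the totals, the CV of Clu went from 9.77% to 3.32% and that of Vim from 6.78% to 10.3%.

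The most variable genes included several that were high or low together in the same libraries. Of the 20 most variable protein-coding genes at 20 CPM or more, Rbp3, Rpgrip1, Slc24a1, Rgs9bp, Cdhr1, Rp1, Rp1l1, Kcnv2 and Cacna1f are genes of photoreceptors or the retina. Rbp3, the retinoid-binding protein of the space around photoreceptors, was at 75.6, 93.1, 433 and 109 CPM. Each of those named was highest in sham 3, as the photoreceptor sum was. Socs3, a feedback inhibitor of cytokine signalling, was also highest in sham 3, at 9.03, 8.93, 103 and 7.14 CPM. The immediate early gene Fos, named after its values were seen, was at 3.78, 3.85, 58.1 and 0.763 CPM.

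Other genes lay low in sham 1. Reln, a large secreted matrix protein, was at 47.2, 193, 287 and 125 CPM, and Optc, opticin, a vitreous proteoglycan secreted by ciliary epithelium, at 22.7, 172, 196 and 115 CPM. Apoe, Fbln1, Col18a1 and Slc6a6 had the same lowest library. No list of ciliary body markers was set, and the part of that tissue in sham 1 to sham 4 was not tested.

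Sex-linked genes formed the last set. Xist, the RNA that silences an X chromosome in females, was at 28.0, 1681, 2140 and 0.555 CPM. Ddx3y, of the Y chromosome, was at 70.8, 0, 0 and 62.3 CPM, and Eif2s3y and Kdm5d were likewise at 0 counts in sham 2 and sham 3. A count of 0 there allows up to 0.152 and 0.167 CPM. Sham 1 held counts of both kinds, and the labels do not state whether any library pooled mice of both sexes.

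Variability above 50% differed by list. Of members at 10 CPM or more, 0 of 6 collagen IV chains, 0 of 7 laminins and 0 of 14 fibre genes exceeded a CV of 50%, beside 2.68% of all genes. Among lens regulators 1 of 28 did (Otx2, a homeobox gene also used in the retina, at 50.1%, named after its values were seen). In lists this small, a share of 2.68% gives few or no such genes, so these counts do not set the lists apart from other genes. Above 50% were 3 of 15 crystallins (Crygb, Crygc and Crygd), 2 of 13 capsule linkers and proteoglycans (Fbln1 and Col18a1) and 8 of 8 photoreceptor markers. The same held for 5 of 5 sex-linked genes, 3 of 3 markers of retinal neurons and glia and 3 of 4 pigment cell markers. It also held for 5 of 11 immediate early and stress genes and 4 of 23 nuclear receptors. The median CV was 16.3% for collagen IV chains, 12.8% for lens regulators, 24.2% for fibre genes, 16.4% for receptor tyrosine kinases, 11.9% for glycolysis and 11.7% for antioxidant genes, beside 13.8% for all genes.

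**Figure D5:**
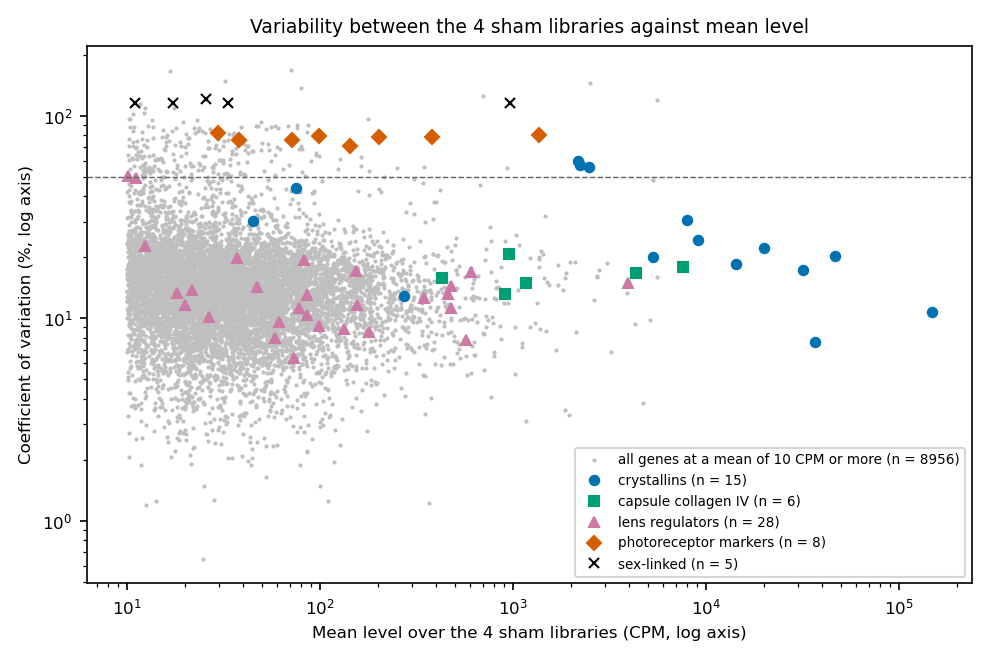
Coefficient of variation over the 4 sham libraries (%, log axis) against mean level (CPM, log axis) for 8956 genes, with 5 sets marked and the dashed line at 50%. Photoreceptor markers and sex-linked genes lay above the line, collagen IV chains lay below it, and 3 gamma crystallins were the crystallins above it.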

How the data were processed

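Of the 8 libraries of the series, the 4 sham libraries were used, grouped by their treatment label, and the others are not analysed here. Per the labels' protocols, RNA was extracted with Trizol and purified on poly-T beads, and cDNA was primed with random hexamers. The authors deposited a single table of unnormalized whole-number counts for each gene. CASAVA, fastp, HISAT2 (2.0.5) and featureCounts (1.5.0-p3) are the tools named, per the submitters' processing notes. Neither the genome build nor the annotation, the strand setting or the handling of multi-mapping reads is given in the sources used here. Counts of near-identical copies and of overlapping or antisense genes may therefore mix with those of their partners.

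CPM was computed from the deposited counts and library totals, which lay between 14420494 and 21141582. TPM used the union of exons in GENCODE mouse release 21, which held 54495 of the 54532 identifiers. Ribosomal RNA, small RNA types and genes under 200 bases of exon were left out of the TPM sum, a choice made after the data were seen. Symbols were found for 54409 identifiers, and 801 of the 803 names on 35 gene lists were matched. Reads carried no stated molecular identifiers, so counting error refers to reads. Promoters are from RefSeq, build GRCm38.p6.

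Values are means ± SD over 4 libraries, with no test and no p-value. Variability was the CV of CPM and the common biological coefficient of variation from edgeR 4.0.16 (intercept only, filterByExpr, TMM) in R 4.3.3, an estimate tested on simulated data. Python 3.11.15 with pandas 2.3.3 and numpy 2.4.6 did the rest. The alternatives were other scalings (TMM, DESeq2 1.42.0 size factors, totals without crystallins or mitochondrial genes), other lengths and thresholds, and each library left out.

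The members and lists were chosen with earlier results of these data known. Genes were named by rule: the 25 most abundant by CPM and the 12 by TPM outside crystallins and mitochondrial genes, the 8 most abundant of each list by TPM (4 for other cell types and processes), a set of lens genes, all crystallins, 15 Slc genes and, among protein-coding genes, the 20 most variable at 20 CPM, the 10 most variable at 100 CPM and the 12 least variable at 100 CPM. Cdh5, Col18a1, Col3a1, Fos, Kera, Klf6, Krt14, Lama4, Lamc3, Lum, Notch1, Otx2, Ptprc, Smurf2 and Tgfbr2 fall outside it and were chosen after their values were seen. A few genes that the rule names are not reported here.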

Additional observations from a re-analysis of the deposited data

Results flagged for a closer look

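Of 228 values (class shares, list sums, gene levels and ratios), 11 had 1 library whose gap to the nearest of the others, as a part of the range over the 4 libraries, was above Dixon's critical value. Chance gives such a gap in about 1 in 20 independent groups of this size. The 228 values overlap and include genes named for their variability or after their values were seen. The count of 11 therefore cannot be set against chance, and it does not show whether any single gap is due to chance. The library with the gap was sham 3 for 5 of the 11. The immediate early gene Fos was at 58.1 CPM there, against 0.763 to 3.85 CPM in the others. Socs3, an inhibitor of cytokine signalling, was at 103 CPM against 7.14 to 9.03 CPM. The photoreceptor gene Rbp3 was at 433 CPM in sham 3 against 75.6 to 109 CPM, Rgs9bp at 108 CPM against 24.8 to 27.4 CPM, and Rpgrip1 at 118 CPM against 21.6 to 34.4 CPM. The summed level of the 8 photoreceptor markers was 5012 CPM in sham 3 and 1054 to 1992 CPM in the others.

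It was sham 4 for 4 values. Small RNA types took 0.834% of its counts, against 0.0496% to 0.143% in the others, and Gm23935, a short entry of that class, was at 7909 CPM against 355 to 1276 CPM. Cdh2, the N-cadherin gene, was at 191 CPM against 280 to 298 CPM, and the laminin chain gene Lamb1 at 152 CPM against 205 to 210 CPM. For sham 1 the values were those of the cell cycle inhibitor Cdkn1c, at 167 CPM against 148 to 151 CPM, and of Lamc3, at 0.757 CPM against 0.277 to 0.355 CPM.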

How the results depend on the processing

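No paired analysis was possible because the values come from 1 group and from no test. A mean of 1 CPM was reached by 14311 genes, one of 10 CPM by 8956, and 28760 genes had any count. Genes with a CV above 50% numbered 240 at 10 CPM, 1109 at 1 CPM and 21 at 100 CPM. Leaving out each library in turn, which was added after seeing the data for this count, gave 104 to 291, the lowest without sham 3, and TMM or DESeq2 size factors gave 197. The median CV of 13.8% became 10.6% with TMM, 10.5% with DESeq2 size factors, 10.9% with crystallins out of the totals (added after seeing the data) and 11.2% without sham 4. The common biological coefficient of variation of 20.1% became 24.4% with no filter and 15.5% as the median of DESeq2 dispersions. Col4a1 was 1.56 times Col4a2 per length and 1.72 times with the longest transcript, and each library left out gave 1.55 to 1.57. With a library left out, 4 of the class shares and list sums moved by over 1.5 times: without sham 4, nuclear ribosomal RNA from 0.556% to 0.235% and small RNA types from 0.272% to 0.0848%, and without sham 3, photoreceptor markers from 2322 to 1425 CPM and sex-linked genes from 1049.6 to 686 CPM. Of 171 gene levels per length, 8 moved by over 1.5 times with the longest transcript, 116 with the median transcript and 0 with all genes in the sum, which was added after seeing the data. By a stricter rule, a move of at least the SD over the libraries, these numbers were 80, 123 and 21. By that rule 8 of the within-library ratios moved with the longest transcript and 2 did not. Of 173 levels in CPM, 32 moved by over 1.5 times with crystallins out of the totals, which raises the level of every other gene by construction, and 0 with TMM, DESeq2 size factors or totals without mitochondrial genes. By the stricter rule 133 moved with crystallins out of the totals, 4 without mitochondrial genes, 1 with TMM and 1 with DESeq2 size factors. Of 20 orders of gene pairs, 18 were kept with the longest and 16 with the median transcript, and of 35 lists, 31 and 27 kept their leading gene. The labels do not give the number of mice behind the 4 libraries, so part of the spread may be technical.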
